A study of Mus musculus with 2 samples.

Results

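The myosin light chain family was represented by 10 genes of the 22156 in the deposited expression table, taken as the rows whose symbol is *Myl1*, *Myl2*, *Myl3*, *Myl4*, *Myl6*, *Myl6b*, *Myl7*, *Myl9*, *Myl12a* or *Myl12b*. The cells were primary chondrocytes from rib cartilage of newborn mice, grown as a monolayer without treatment, and each genotype gave 1 RNA sequencing library. In *Myl3*-KO mice a *Col2a1*-driven Cre recombinase removes floxed *Myl3* from cells that use this cartilage collagen promoter. The control is labelled WT, whereas the methods of the study describe controls as floxed littermates without Cre, all on the C57BL/6 J background. The comparison asks which light chains these cells express, and whether any of them differs where *Myl3* is deleted.

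A myosin II motor carries a pair of light chains on the neck of each heavy chain. The essential light chain stiffens the neck, and the regulatory light chain switches the motor on in smooth muscle and non-muscle cells when myosin light chain kinase phosphorylates it. *Myl3* encodes the essential chain of the heart ventricle and slow skeletal muscle, *Myl6* that of smooth muscle and non-muscle cells, and *Myl12a* and *Myl12b* encode non-muscle regulatory chains.

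The paralogues are alike enough for their sequences to bear on how reads were assigned. Below are the first coding bases of the 3 regulatory chains of smooth muscle and non-muscle cells, from coding base 1 to 90 (GENCODE M21, GRCm38, 5′ to 3′), with capitals where a base differs from *Myl12a*. *Myl12b* differs at 4 of them and *Myl9*, the smooth muscle chain, at 13. The threonine at residue 19 and the serine at residue 20, counted from the starting methionine, are the sites of the regulatory phosphorylation and are encoded by bases 55 to 60.
Myl12a: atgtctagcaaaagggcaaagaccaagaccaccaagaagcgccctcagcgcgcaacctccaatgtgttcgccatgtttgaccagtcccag
Myl12b: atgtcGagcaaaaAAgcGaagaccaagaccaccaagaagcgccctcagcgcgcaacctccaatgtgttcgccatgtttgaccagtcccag
Myl9: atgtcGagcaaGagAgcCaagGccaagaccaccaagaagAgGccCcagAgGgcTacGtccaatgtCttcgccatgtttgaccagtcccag

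For 4 essential chains the matching stretch of the coding sequence is shown, with capitals where a base differs from *Myl6*. It runs from coding base 88 to 177 in *Myl6* and from 247 to 336 in *Myl3*. *Myl6b* differs from *Myl6* at 8 of these bases, *Myl4* at 18 and *Myl3* at 21.
Myl6: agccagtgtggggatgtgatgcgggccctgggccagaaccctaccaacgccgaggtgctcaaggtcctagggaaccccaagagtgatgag
Myl6b: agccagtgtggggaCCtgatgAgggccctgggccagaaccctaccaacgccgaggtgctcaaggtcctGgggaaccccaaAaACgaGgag
Myl3: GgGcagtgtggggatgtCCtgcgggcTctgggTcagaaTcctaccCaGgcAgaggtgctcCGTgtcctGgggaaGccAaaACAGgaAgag
Myl4: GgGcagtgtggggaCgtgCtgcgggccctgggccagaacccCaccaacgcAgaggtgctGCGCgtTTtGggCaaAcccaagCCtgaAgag

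Across the whole proteins, translated from the same annotation, MYL12A and MYL12B shared 168 of 172 residues (97.7%), and MYL9 shared 162 of 172 with MYL12A (94.2%). MYL3 was closest to MYL4, the atrial essential chain, at 78.2%, followed by MYL1 of fast skeletal muscle at 75.0%, MYL6 at 71.5% and MYL6B at 64.4%. Between an essential and a regulatory chain the identity was 28.0% to 35.2%. The 2 classes are thus separate in sequence, and the close pairs lie within them.

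**Figure D1:**
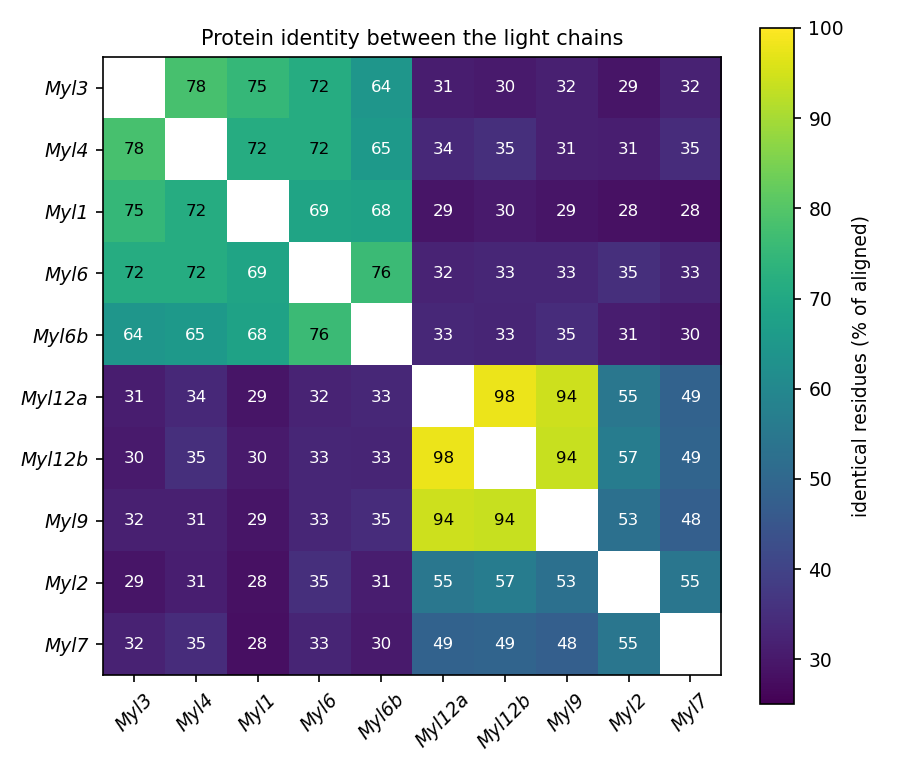
Protein identity between the 10 light chains, as the percent of aligned residues that are identical, with genes on both axes and essential chains before regulatory chains. MYL12A and MYL12B form the closest pair at 97.7%, and identities between the classes lie at 28.0% to 35.2%.

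Neighbouring genes form the closest pairs of the expressed chains. *Myl6* (ENSMUSG00000090841) lies on the minus strand of chromosome 10 from 128490860 to 128494145, and *Myl6b* begins 11 bases beyond it on the same strand. *Myl12a* and *Myl12b* lie 2765 bases apart on the minus strand of chromosome 17, from 70993656 to 71002878 and from 70973133 to 70990890. *Myl3* lies on the plus strand of chromosome 9 from 110741861 to 110769798, where *Pth1r* overlaps it on the other strand.

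Expected counts (estimated reads per gene) summed to 17612434.91 in the control and to 13477976.98 in *Myl3*-KO. A floor of 3 counts, or 0.170 CPM (counts scaled to the library total) and 0.223 CPM, marks the limit of detection. This floor is a set value. The 95% intervals take in counting error alone, by the Clopper-Pearson method for ratios and as Poisson limits for FPKM. With 1 library per genotype no difference has a replicate check, and p-values set the reads of one library against the other and do not test genotype. In bulk RNA, fewer cells of a type and less RNA per cell cannot be told apart. Markers did not settle the label chondrocyte. Of 18 such markers 6 were listed at 0 in both libraries, as were 7257 of all 22156 genes. *Acan*, *Matn1* and *Hapln1* were among the 6. The markers with the most counts were *Sox9*, *Sox5* and *Col11a2*. Their control and *Myl3*-KO counts were 866 and 480 for *Sox9*, 893 and 684 for *Sox5*, and 293 and 395 for *Col11a2*. *Col2a1*, whose promoter drives the Cre, had 30 and 27. The chondrocyte markers summed to an FPKM (reads scaled by gene length and library) of 24.28 and 24.01. Of the 7 tested, *Col11a2* was called higher (log2 ratio, *Myl3*-KO over control, 0.82) and *Sox9* lower (-0.47) at an adjusted exact binomial p under 0.05. Fibroblast markers summed to an FPKM of 3110 and 3479, most of it from *Col1a2* (211652 and 189213 counts) and *Col3a1* (32845 and 25338). *Thy1* was listed at 0 and *Fap* had 1 and 0 counts. Of the 8 fibroblast markers tested, 4 were called higher in *Myl3*-KO and 3 lower at an adjusted exact binomial p under 0.05. Over all genes tested 18.6% were higher and 16.8% lower. The log2 ratio (*Myl3*-KO over control) was 0.22 for *Col1a2* and 0.67 for *Fbn1*. Past a log2 ratio of -1 lay 2, *Dcn* from 631 to 155 counts and *Lum* from 272 to 81, beside 1.19% of all genes tested. The part of these cell type markers in the light chain values was not tested.

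*Myl3*, the deleted gene, was listed at 0 counts in the control and at 0 in *Myl3*-KO. Its deletion could not be seen in these counts, and the labels could not be checked by it. Whether reads of *Myl3* were lost in assignment was not tested. Separately, the study measured *Myl3* RNA by RT-PCR and MYL3 protein by western blot in chondrocytes of both genotypes. Over its longest annotated transcript of 1125 bases, 3 counts correspond to 0.151 FPKM in the control and 0.198 in *Myl3*-KO. At that floor *Myl3* would be 4680-fold lower than *Myl6* in the control and 3671-fold lower in *Myl3*-KO, on the FPKM scale. These folds are approximate and not bounds. The length behind the FPKM of *Myl6* is 700 bases, whereas its longest annotated transcript has 3040. *Pth1r*, the parathyroid hormone receptor gene on the opposite strand, had 18 and 11 counts, so few reads of either gene came from this region.

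The light chain RNA of both libraries was that of non-muscle cells. *Myl6* took 8737 control and 6956 *Myl3*-KO counts, an FPKM of 708.60 (694 to 724) and 726.38 (709 to 744). By FPKM it ranked 94 and 84 among the 22156 genes. Within the essential class it made up 99.5% of the summed FPKM in each library.

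The other essential chains were scarce. *Myl6b*, an essential chain of slow muscle and non-muscle cells, had 52 and 42 counts, at an FPKM of 2.88 (2.15 to 3.78) in the control and 3.04 (2.19 to 4.11) in *Myl3*-KO. *Myl4* had 12 and 9 counts, at 0.82 FPKM (0.424 to 1.43) and 0.89 (0.407 to 1.69). *Myl6b* held 0.404% and 0.416% of the essential FPKM and *Myl4* 0.115% and 0.122%. The order *Myl6*, *Myl6b*, *Myl4* was the same in both libraries, with intervals that did not overlap between neighbours. *Myl1* was listed at 0 in both, where the floor of 3 counts corresponds to 0.157 FPKM in the control and 0.206 in *Myl3*-KO.

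The regulatory class consisted of *Myl12a* and *Myl12b*. *Myl12a* took 6945.86 control and 5126.84 *Myl3*-KO counts, at 279.89 FPKM (273 to 287) and 270.41 (263 to 278), ranks 235 and 221. *Myl12b* had 2786.14 and 2133.16 counts, at 126.25 FPKM (122 to 131) and 126.31 (121 to 132), ranks 604 and 539. *Myl12a* therefore stood above *Myl12b* in each library, by 2.22-fold against 2.14-fold with the deletion, and held 68.9% and 68.2% of the regulatory FPKM.

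The other 3 regulatory members were listed at 0 in both libraries. They are *Myl2* of the ventricle and slow muscle, *Myl7* of the atrium and *Myl9* of smooth muscle. Set at the floor of 3 counts, *Myl9* would be 1854-fold lower than *Myl12a* in the control and 1370-fold lower in *Myl3*-KO on the FPKM scale. By the same approximate measure *Myl2* would be 1461-fold and 1080-fold lower, and *Myl7* 969-fold and 717-fold lower. *Myl7* has the smallest folds because its annotated transcript is the shortest, at 590 bases.

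**Figure D2:**
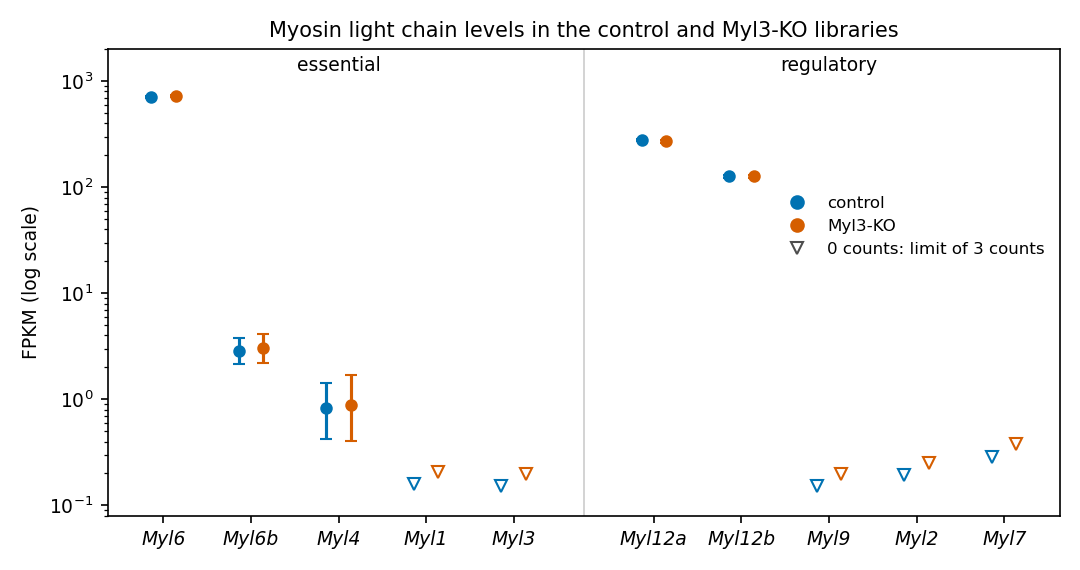
FPKM of the 10 light chains on a log axis, with 1 point per library (blue control, orange *Myl3*-KO) and bars for the 95% counting interval; open triangles mark genes with 0 counts at the FPKM that 3 counts would give. *Myl6*, *Myl12a* and *Myl12b* lie above 100 FPKM in both libraries, *Myl6b* and *Myl4* at or below 3.04 FPKM, and 5 genes show no count.

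A value of 0 in this table is a listing, not proof of silence. Some genes that most cells use heavily were low as well. *Gapdh* was listed at 13.17 FPKM in the control and 7.1 in *Myl3*-KO, beside 838.88 and 559.57 for *Pgk1*, its neighbour in glycolysis, and *Ppia* at 10.71 and 7.2. All 3 were picked with their values in view. Of 72 cytosolic ribosomal protein genes none (0) was at 0 in both libraries. Of the *Myl9* transcript words of 31 bases, 0.412% occur in another gene, and whether its reads were lost in assignment was not tested.

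Markers of the muscle types that use the chains listed at 0 were low too. Counts of markers at 0 stand beside 7257 of all 22156 genes listed at 0 in both libraries. Of 16 skeletal muscle fibre markers 7 were listed at 0 in both libraries, *Ckm*, *Des* and *Actn2* among them, and the summed FPKM was 2.50 and 2.08. *Tnnc1*, with 22 and 16 counts, and *Neb*, with 11 and 12, had the most counts of the list. Of 10 heart markers 6 were at 0, including *Actc1*, *Myh6* and *Myh7*, with a summed FPKM of 1.81 and 4.77. *Tnnt2* had 19 and 47 counts (log2 ratio 1.69, exact binomial adjusted p = 6.15e-05) and *Tnni3* 12 and 15. For smooth muscle the sum was 17.09 and 17.47, with *Smtn* at 655 and 487 counts, *Acta2* at 172 and 127, and *Actg2* and *Myocd* at 0. In that list *Lmod1* (4 and 9 counts) and *Ldb3* (7 and 12) had log2 ratios of 1.56 and 1.16 and did not pass the exact binomial test. Among 10 markers of muscle precursors 7 were at 0, *Pax7*, *Myod1* and *Myog* among them. *Cdh15* alone was tested there and rose from 73 to 290 counts (log2 ratio 2.38, exact binomial adjusted p = 1.14e-43). Of all genes tested 2.16% were higher by a log2 ratio of 1 and 18.6% by the test. The part of *Cdh15* and *Tnnt2* in the light chain values was not tested.

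Immune markers summed to 1.68 and 2.38 FPKM, with *Cd68* at 18 and 16 counts and *Csf1r* at 14.04 and 12. Endothelial markers summed to 0.29 and 0.45, with *Vwf* at 22 and 29 counts and *Pecam1* at 5 in each. Erythroid markers summed to 0 and 0.11. Blood and vessel cells were therefore represented by few reads in either library.

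Between the genotypes the light chains differed little. The log2 ratio (*Myl3*-KO over control), from counts divided by the library total, was 0.057 for *Myl6* (95% interval 0.011 to 0.10), -0.052 for *Myl12a* (-0.10 to 0.00) and 0.00 for *Myl12b* (-0.08 to 0.08). The less abundant *Myl6b* gave 0.078 (-0.54 to 0.69) and *Myl4* -0.029 (-1.46 to 1.34), so changes of moderate size in these 2 genes would not have been detectable at this depth. The 5 genes listed at 0 have no ratio.

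Of the 10 members 5 had at least 10 counts over both libraries and were tested with 12431 genes in all. Among these 5, 0 reached a log2 ratio of 1 in either direction, against 2.16% of all genes tested that were higher by that much in *Myl3*-KO and 1.19% that were lower. By the two-sided exact binomial test with an adjusted p under 0.05, 1 member was higher and 0 were lower, where 18.6% of all genes tested were higher and 16.8% lower. That member was *Myl6* (exact binomial p = 0.0140, Benjamini-Hochberg adjusted p = 0.0411). *Myl12a* had an exact binomial p of 0.0505 (adjusted p = 0.117), and the adjusted p was 0.917 for *Myl6b* and 1 for *Myl4* and *Myl12b*. The median log2 ratio was 0.00 over the tested members and 0.02 over all genes tested.

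The *Myl6* call rests on the scaling of the libraries. With TMM factors its log2 ratio was 0.039 (exact binomial test, adjusted p = 0.190), and *Myl12a* passed the threshold in its place, at -0.070 (adjusted p = 0.0272). With DESeq2 size factors the values were 0.040 (adjusted p = 0.172) and -0.069 (adjusted p = 0.0305). Genes with the counts of *Myl6* commonly differed by more. Of the 5907 genes with 1000 to 10000 counts over both libraries the central 95% of log2 ratios ran from -0.39 to 0.42, and of the 478 with more from -0.37 to 0.38.

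**Figure D3:**
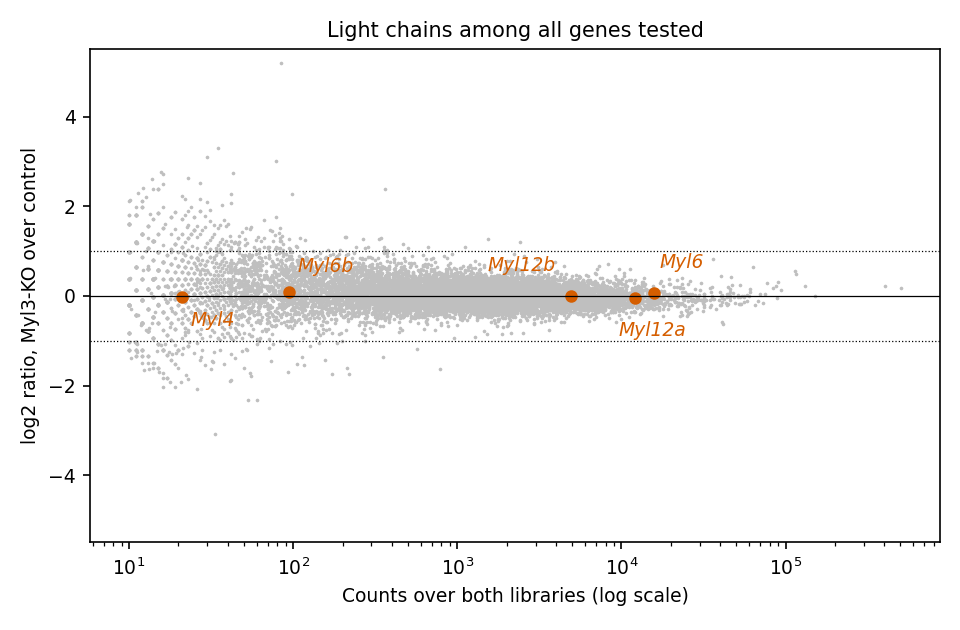
The log2 ratio (*Myl3*-KO over control) against the counts over both libraries (log axis) for the 12431 genes tested, in grey, with the 5 tested light chains in orange and dotted lines at a log2 ratio of 1 and -1. All 5 lie between -0.052 and 0.078, inside the spread of genes with like counts.

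Gene length moved with the ratio across the whole table. Among genes with at least 1000 counts, the 373 with a length under 1000 bases (the length behind the deposited FPKM) had a median log2 ratio of -0.16, and 5.63% of them passed the exact binomial test as higher and 57.4% as lower. From 1000 to 2000 bases the median was -0.090, from 2000 to 4000 it was -0.0064, from 4000 to 6000 it was 0.055, and from 6000 bases on it was 0.076, where 39.4% of 790 genes passed as higher. The tested light chains are short, from 700 bases for *Myl6* to 1409 for *Myl12a*.

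Set against the median of their own length range, the log2 ratios became 0.21 for *Myl6*, 0.091 for *Myl12b* and 0.038 for *Myl12a*, the 3 members with at least 1000 counts. This comparison was added after the data were seen and carries no test. *Myl12a* changed sign in it. The part of length in these ratios was not tested.

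**Figure D4:**
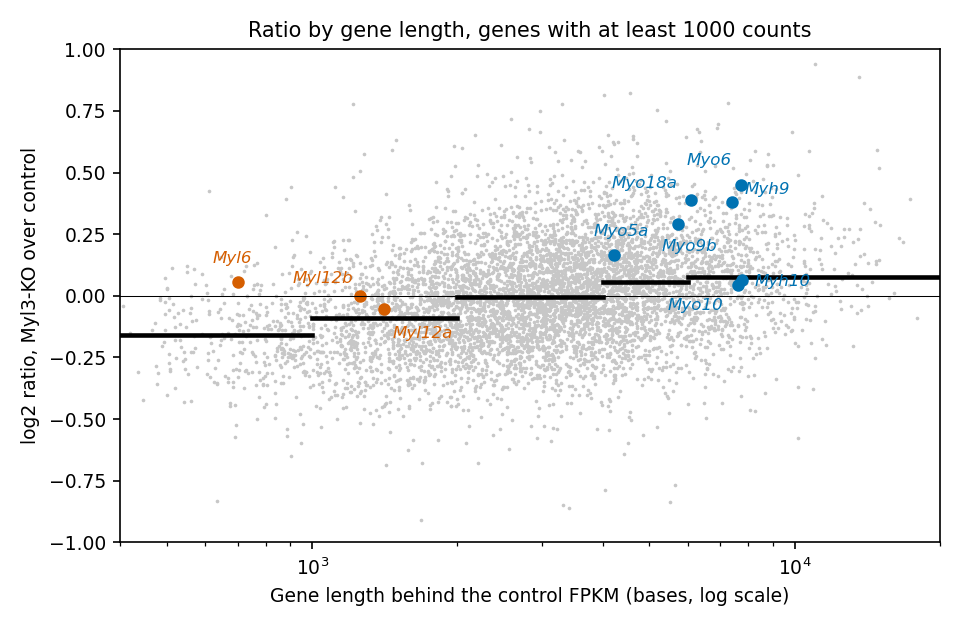
The log2 ratio (*Myl3*-KO over control) against gene length (bases, log axis) for genes with at least 1000 counts, in grey, with black bars at the median of each length range, light chains in orange and heavy chains in blue (14 of 6385 genes lie outside the axes). The medians climb from -0.16 to 0.076, *Myl6* (0.057) lies above the bar of its range at 700 bases, and *Myh9* (0.38) above that of the longest genes.

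The split of reads between close paralogues is uncertain. The counts of *Myl12a* and *Myl12b* were not whole, whereas their sums were, at 9732 and 7260. Of the 31-base words in their transcripts, 22.9% for *Myl12a* and 26.0% for *Myl12b* occur in another gene, and 306 are common to the pair. A second annotated *Myl12b* record on the same strand (ENSMUSG00000117098), which had no row in the table, holds 589 words of *Myl12a* and all 710 shared words of *Myl12b*. The summed log2 ratio was -0.037 (-0.081 to 0.0072, exact binomial p = 0.101), and *Myl12a* took 71.4% and 70.6% of the counts. The individual levels of *Myl12a* and *Myl12b* are therefore uncertain, and their sum did not pass the test.

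*Myl6* and *Myl6b* had whole counts, although they share a run of 46 coding bases from base 110 of *Myl6* and base 278 of *Myl6b*. Their sum was 8789 and 6998, with a log2 ratio of 0.057 (0.012 to 0.10). Of the words of *Myl6*, 11.4% occur elsewhere, and 6 annotated pseudogenes hold some of them, of which 0 had a row in the table. *Myom1*, a sarcomere gene that overlaps *Myl12a* on the opposite strand, had 52 and 59 counts, far below those of *Myl12a*. *Ccdc63*, which overlaps *Myl2* on the other strand, had 0 in both.

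Of 6 further genes that encode light chains or calmodulins, proteins that bind myosin necks, all 6 were tested, 0 rose and 2 fell, with a median log2 ratio of -0.054, beside 18.6% higher and 16.8% lower over all genes tested. The 2 that fell were calmodulin genes, *Calm2* from 12658 to 8816 counts (-0.14, interval -0.18 to -0.10, exact binomial adjusted p = 1.95e-10) and *Calm3* from 3552 to 2531 (-0.10, adjusted p = 0.0207). Both have lengths of 1000 to 2000 bases, where 40.7% of genes with at least 1000 counts passed as lower. *Calml4* gave 0.00 at 59 and 45 counts.

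The last 2 regulatory chains had few counts. *Mylpf*, of fast skeletal muscle, had 16 and 15 counts (log2 ratio of 0.29, with an interval of -0.83 to 1.40). *Myl10* had 10 and 6 (-0.35, interval -2.09 to 1.25). Both intervals are wide and include 0.

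The heavy chains to which these light chains bind were the non-muscle forms. Of 13 myosin II heavy chain genes 5 were at 0 in both libraries (*Myh2*, *Myh4*, *Myh6*, *Myh7* and *Myh8*), beside 7257 of all 22156 genes. Of the 13, 3 were tested, 2 rose and 0 fell, beside 18.6% of all genes tested that were higher. *Myh9*, the main non-muscle heavy chain, had 9751.12 and 9706.23 counts, or 74.49 and 96.89 FPKM (log2 ratio 0.38, interval 0.34 to 0.42, exact binomial adjusted p = 2.68e-72). *Myh10*, another non-muscle form, had 7952.88 and 6368.77 counts (0.066, interval 0.018 to 0.11, adjusted p = 0.0231). The counts of *Myh9* and *Myh10* were not whole, whereas their sums were, at 17704 and 16075, so the split of reads between them is uncertain. The summed log2 ratio was 0.25 (0.22 to 0.28), and *Myh9* took 55.1% and 60.4% of the counts. *Myh13* had 35 and 26 counts (-0.043).

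FPKM of light chains relative to the sum of *Myh9* and *Myh10* was lower in *Myl3*-KO. The essential to heavy chain ratio was 5.38 in the control against 4.64, and the regulatory ratio 3.07 against 2.52. The heavy chain sum itself was 132.45 FPKM and 157.54, while the essential sum was 712.3 and 730.31 and the regulatory sum 406.14 and 396.72. The heavy chain sum moved more than either light chain sum. *Myh9* and *Myh10* are long genes, of 7433 and 7791 bases, a range where 39.4% of genes passed as higher, and less the median of their length range their log2 ratios were 0.30 and -0.011. The part of length was not tested.

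Among 14 unconventional myosin genes, motors whose necks bind calmodulin or light chains, 12 were tested, 8 rose and 0 fell, with a median log2 ratio of 0.23, beside 18.6% higher and 16.8% lower over all genes tested. Of these 12 genes 11 were at least 4000 bases long, and among genes with at least 1000 counts 35.2% passed as higher from 4000 to 6000 bases and 39.4% beyond. Less the median of genes of like length, 8 of the 9 with at least 1000 counts lay above 0, with a median of 0.11. By definition a length median has as many genes above it as below. The part of length was not tested. *Myo6*, the motor that moves clathrin-coated vesicles inward, had 685 and 715 counts (log2 ratio 0.45, interval 0.29 to 0.60, exact binomial adjusted p = 9.51e-08) and 0.37 less its length median. *Myo1c* rose from 56.46 to 59.70 FPKM (log2 ratio 0.083, exact binomial adjusted p = 0.0304). *Myo5a*, a vesicle motor, gave 0.16 (adjusted p = 2.68e-05), and *Myo10* gave 0.042 and did not pass.

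Genes that set light chain phosphorylation were called in both directions. The list held 19 genes for kinases, phosphatase subunits, phosphatase inhibitors and a ligase, of which 13 were tested. Of these, 5 rose (*Mylk*, *Cdc42bpa*, *Cdc42bpb*, *Cit* and *Ppp1r12b*) and 2 fell, *Ppp1cb* and the phosphatase inhibitor gene *Ppp1r14b*. The median log2 ratio was 0.053. Over all genes tested 18.6% were higher and 16.8% lower. Of the 13 genes 8 were at least 4000 bases long, the range with 35.2% and 39.4% passing as higher. Less the median of genes of like length, 6 of the 11 with at least 1000 counts lay above 0, with a median of 0.0074. The part of length was not tested. *Mylk*, myosin light chain kinase, had 285 and 345 counts (0.66, interval 0.43 to 0.89, exact binomial adjusted p = 1.26e-07). *Ppp1cb*, the catalytic subunit of myosin phosphatase, fell from 5881 to 3909 counts (-0.20, adjusted p = 1.39e-10). *Ppp1r12a*, its targeting subunit, gave 0.00 at 3864 and 2959 counts, and *Cdc42bpa* gave 0.14. RNA levels do not measure phosphorylation of the light chains.

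**Figure D5:**
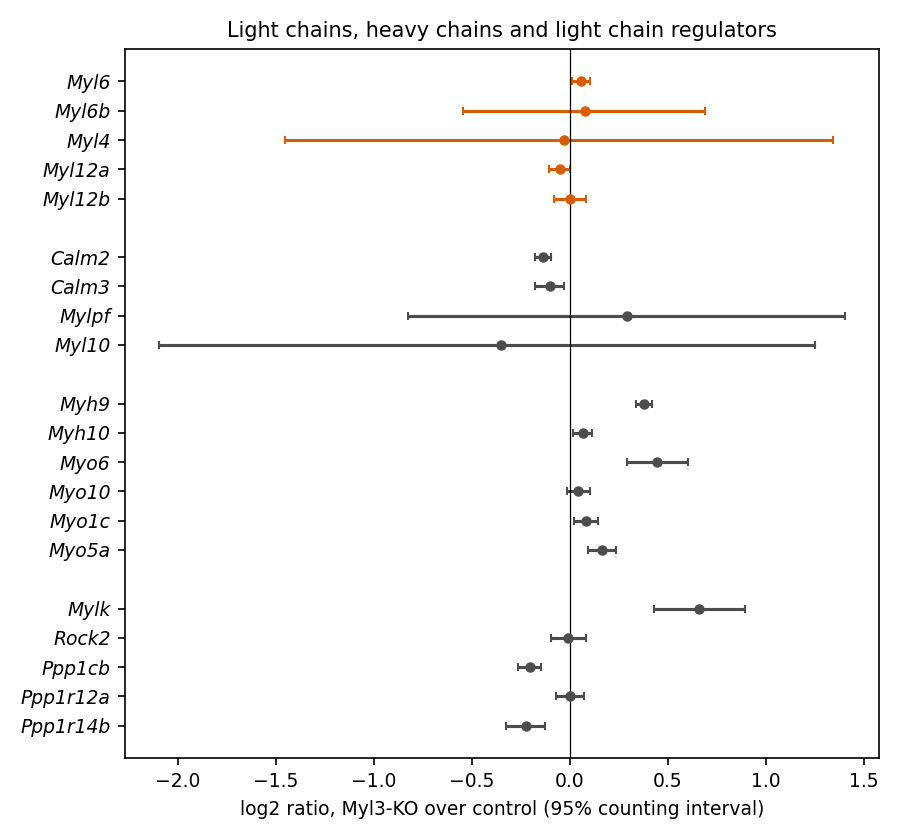
The log2 ratio (*Myl3*-KO over control) (horizontal axis) for the tested light chains in orange and for calmodulins, other regulatory chains, heavy chains and light chain regulators in grey, with bars for the 95% counting interval. The abundant light chains lie between -0.052 and 0.057. Of the other genes *Myh9* lies at 0.38, *Myo6* at 0.45 and *Mylk* at 0.66, but *Myh10* lies at 0.066, *Myo10* at 0.042, *Ppp1cb* at -0.20 and *Ppp1r14b* at -0.23. The ratios drawn are not set against gene length.

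The promoter windows of the deleted gene and of the most abundant light chain are shown from RefSeq on GRCm38.p6, 5′ to 3′ on the gene's strand. All 10 members matched, with 12 windows. Capitals mark a CArG box, the motif bound by serum response factor, or TGACGTCA, the cAMP response element. TGACGTCA and the general CArG pattern match on either strand, although the inner bases of a given CArG box can read differently. The first is the *Myl3* window at chr9:110763428-110763727 (plus strand), with the CArG box beginning at -85 from the start site. The next 2 are the *Myl6* windows at chr10:128492960-128493259 and chr10:128493837-128494136 (minus strand), with a CArG box beginning at -50 and TGACGTCA at -21 from their start sites.
Myl3: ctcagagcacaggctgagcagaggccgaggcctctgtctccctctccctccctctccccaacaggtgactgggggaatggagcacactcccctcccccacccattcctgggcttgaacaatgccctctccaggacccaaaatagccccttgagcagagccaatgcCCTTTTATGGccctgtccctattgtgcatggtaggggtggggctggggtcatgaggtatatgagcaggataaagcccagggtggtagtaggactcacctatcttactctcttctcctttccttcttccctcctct
Myl6 internal: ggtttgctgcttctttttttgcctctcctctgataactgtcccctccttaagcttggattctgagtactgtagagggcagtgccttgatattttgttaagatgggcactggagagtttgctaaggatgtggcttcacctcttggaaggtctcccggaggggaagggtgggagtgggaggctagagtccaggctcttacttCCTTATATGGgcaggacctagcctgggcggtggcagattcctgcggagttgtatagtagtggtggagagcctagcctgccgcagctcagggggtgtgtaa
Myl6 upstream: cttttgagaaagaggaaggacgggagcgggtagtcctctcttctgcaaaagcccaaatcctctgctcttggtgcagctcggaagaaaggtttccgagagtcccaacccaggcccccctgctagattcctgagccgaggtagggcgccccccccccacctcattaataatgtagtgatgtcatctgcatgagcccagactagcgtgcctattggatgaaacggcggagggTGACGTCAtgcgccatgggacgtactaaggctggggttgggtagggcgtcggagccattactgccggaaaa

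CArG boxes also lay in the windows of *Myl7* and *Myl9*, so 4 members held one, among them 3 that were listed at 0 and *Myl6*. A CArG box occurs in 1.63% of the 32851 RefSeq windows and TGACGTCA in 1.79%. The motifs were chosen after the sequences were seen, and a match describes letters in a window, not a site in use.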

How the data were processed

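RNA sequencing of primary chondrocytes was analysed, with 1 control and 1 *Myl3*-KO library and totals of 17612434.91 and 13477976.98. The authors deposited, for each gene, an expected count of reads, estimated and not normalized, with fractions in 1438 control and 1388 *Myl3*-KO values. The authors also deposited FPKM values, scaled by gene length and library. The submitters' processing notes name GRCm38 and mm10, and the aligner and counter are not given in the sources used here. The labels name a SMARTER kit, whereas the methods describe oligo beads and random primers. The control column is headed NC and was read as the control because the other is headed KO.

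Ratios used counts over the library total, with values under 3 raised to 3. The test was a two-sided exact binomial test of rounded expected counts, with the share of the library totals as the null, on genes with 10 or more counts over the 2 libraries, with Benjamini-Hochberg adjustment over all of them. No residual degrees of freedom were left for the edgeR or DESeq2 dispersion estimates. Alternatives were TMM and DESeq2 scaling, other filters, 1 added count, FPKM ratios, summed paralogues, and the edgeR exact test at fixed coefficients of variation. The test was checked on simulated counts with counting error alone, the noise that the test assumes. Such a check cannot show how often the test errs where libraries vary by more. Positions, transcripts and coding sequences came from GENCODE M21 (21881 of 21910 Ensembl identifiers found; 246 rows had none). Protein identity used translated coding sequences by pairwise global alignment, where RefSeq proteins had been planned.

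All members and other light chains are named, except for 1 gene and 1 sequence that are not reported here; of each heavy chain, unconventional myosin, and kinase or phosphatase list, the 3 genes with most counts, *Myo6* and genes past a log2 ratio of 1; of each marker list, its 2 leading genes and defining markers at 0; and, of the genes that overlap a member or share words with one, those given above. The other such records, mostly pseudogenes and non-coding RNAs, are not named. *Mylk*, *Cdc42bpb*, *Cit*, *Ppp1r12b*, *Ppp1r14b*, *Col11a2*, *Fbn1*, *Dcn*, *Lum*, *Fap*, *Lmod1*, *Ldb3* and the untested heavy chains were named after their values were seen. The members and lists were chosen with earlier results of these data known. Python 3.11.15, numpy 2.4.6, pandas 2.3.3, scipy 1.17.1, matplotlib 3.10.9, Biopython 1.88, R 4.3.3, edgeR 4.0.16 and DESeq2 1.42.0 were used.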

Additional observations from a re-analysis of the deposited data

How the results depend on the processing

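With 1 library per genotype no replicate could be left out. No paired analysis was possible because each genotype has 1 library and no result comes from paired replicates. The log2 ratio of *Myl6* was 0.039 under TMM (adjusted p = 0.190) and 0.040 under DESeq2 scaling (adjusted p = 0.172), no longer past the threshold, and *Myl12a* passed it at -0.070 and -0.069 (adjusted p = 0.0272 and 0.0305) in the exact binomial test. The sum of *Myl6* and *Myl6b*, of which *Myl6* holds 99.4% of the counts, gave 0.057 (adjusted p = 0.0395), and *Myl6b* alone did not pass. The number of members called went from 1 to 0 under edgeR's exact test at a coefficient of variation of 0.1, 0.2 or 0.4, where 61, 4 and 1 of 12431 genes were called and 0 members had an unadjusted p under 0.05. Less the median of genes of like length, an alternative added after the data were seen, the log2 ratio was 0.21 for *Myl6*, 0.038 for *Myl12a* and 0.091 for *Myl12b*. By counts per kilobase of the longest annotated transcript, the share of *Myl6b* was 1.43% in the control and 1.45% in *Myl3*-KO, that of *Myl12a* 73.4% and 72.7%, and that of *Myl12b* 26.6% and 27.3%. The other 44 values stayed on their side of the threshold or within counting error, but *Myl12b*, near 0, changed sign under TMM (-0.017), DESeq2 scaling (-0.016) and the sum with *Myl12a* (-0.037), and *Myl4* with 1 count added (0.0075) and as FPKM (0.12). *Myl4* had 9 counts in *Myl3*-KO and gave no value under a minimum of 10 counts in each library. Depth limits *Myl4* and *Myl6b* most. Scaling moved the median of all genes by -0.02.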
